A study of Mus musculus with 10 samples.

Results

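The 34 genes described here encode the machinery that makes peptides from cytosolic proteins and shows them on MHC class I molecules: 11 class I heavy chains, beta-2 microglobulin and the transactivator Nlrc5, the peptide transporter and loading proteins, peptide-trimming enzymes, and the catalytic subunits, activators and assembly factor of the proteasome. They were taken by symbol through their Ensembl identifiers from a table of 60676 genes and loci, and all 34 were found. Their transcripts were measured in 10 RNA-seq libraries of 2 mouse tumour lines, MC38 (colon carcinoma) and B16 (melanoma). Sdc1, the gene of the cell-surface heparan sulphate proteoglycan syndecan-1, had been knocked down in every library, and before harvest all cells received 10 ng/ml of interferon gamma (IFNγ), over 24 h. The groups, with 2 libraries each, were MC38 with the knockdown alone, MC38 with the knockdown and a form of Sdc1 named c30, MC38 with the knockdown and a form named ect, B16 with the knockdown alone, and B16 with the knockdown and wild-type Sdc1. What c30 and ect change in Sdc1 is not given beyond the word mutant. Nor do the labels tell clones from pools, or state that the 2 libraries of a group were grown separately. The p-values therefore reflect the spread of these libraries alone, and that spread may be technical. No library without IFNγ or without the knockdown is analysed here, so the level before IFNγ and the response to it cannot be told apart. In bulk RNA, fewer cells that express a gene and less RNA per cell cannot be told apart either.

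Class I molecules consist of a heavy chain and beta-2 microglobulin and carry peptides to the cell surface, where CD8+ T cells read them. The proteasome cuts the peptides, the transporter TAP moves them into the endoplasmic reticulum, and the loading complex with tapasin, calreticulin and the thiol oxidoreductase Pdia3 fits them to the heavy chain. IFNγ induces the transactivator Nlrc5, most genes of this route, and 3 proteasome subunits (Psmb8, Psmb9 and Psmb10) that replace the constitutive catalytic subunits (Psmb5, Psmb6 and Psmb7) in new particles, called immunoproteasomes. B16 cells are known for little surface class I before IFNγ.

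The libraries held 11349447 to 15041133 counts. Sdc1 stood at 24.5 and 29.99 counts per 1000000 of the library total (CPM) in the MC38 knockdown libraries, 97.0 and 99.5 CPM with c30, 22.4 and 25.2 CPM with ect, 40.7 and 43.1 CPM in the B16 knockdown and 71.1 and 56.9 CPM with wild-type Sdc1. The ect range overlapped that of the knockdown. All 7 melanocyte markers reached 1 CPM in every B16 library, with sums of 13294 to 14124 CPM, against sums of 6.33 to 12.8 CPM in MC38. The 8 epithelial markers summed to 9.66 to 16.8 CPM in MC38, with at most 2 of them at 1 CPM or more. Cdh1 held the most counts, at 189 and 184 in the MC38 knockdown, 105 and 84 with c30, and 63 and 103 with ect. Epcam held at most 6 counts in any MC38 library. Leukocytes express the genes described here strongly. Their 13 markers summed to 3.05 to 4.65 CPM in MC38 and 4.75 to 6.79 CPM in B16. Cd3e, Cd3d and Ncr1 were at 0 in all 10 libraries. Lyz2 held 12 to 25 counts in MC38 and 34 to 51 in B16, and Coro1a 7 to 17 and 8 to 19.

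The 34 genes together took 0.984% to 1.06% of all counts in the MC38 libraries and 1.07% to 1.16% in the B16 libraries. In each line both knockdown libraries held the highest shares. Per kilobase of exon, B2m had the highest level in the knockdown libraries of both lines. In MC38 it was followed by H2-K1, H2-D1 and Calr, with means of 988, 712, 628 and 522 CPM per kilobase. In B16 the order was B2m, Calr, H2-D1 and Pdia3, with 2194, 575, 492 and 326 CPM per kilobase, and H2-K1 came in place 12 of 34 with 163. Neighbours among these 4 did not overlap between libraries in either line. H2-Q6 and H2-Q7, which encode Qa-2 molecules, held 0 counts in all 10 libraries, and H2-Q10 held at most 1. A count of 0 allows a level of up to 0.199 to 0.264 CPM by counting error. However, H2-Q6 and H2-Q7 have near-identical copies and the handling of reads with several matches is not given, so their levels are not known. Whether this also affects H2-Q10 was not tested. The other 31 genes were tested in every comparison.

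**Figure D1:**
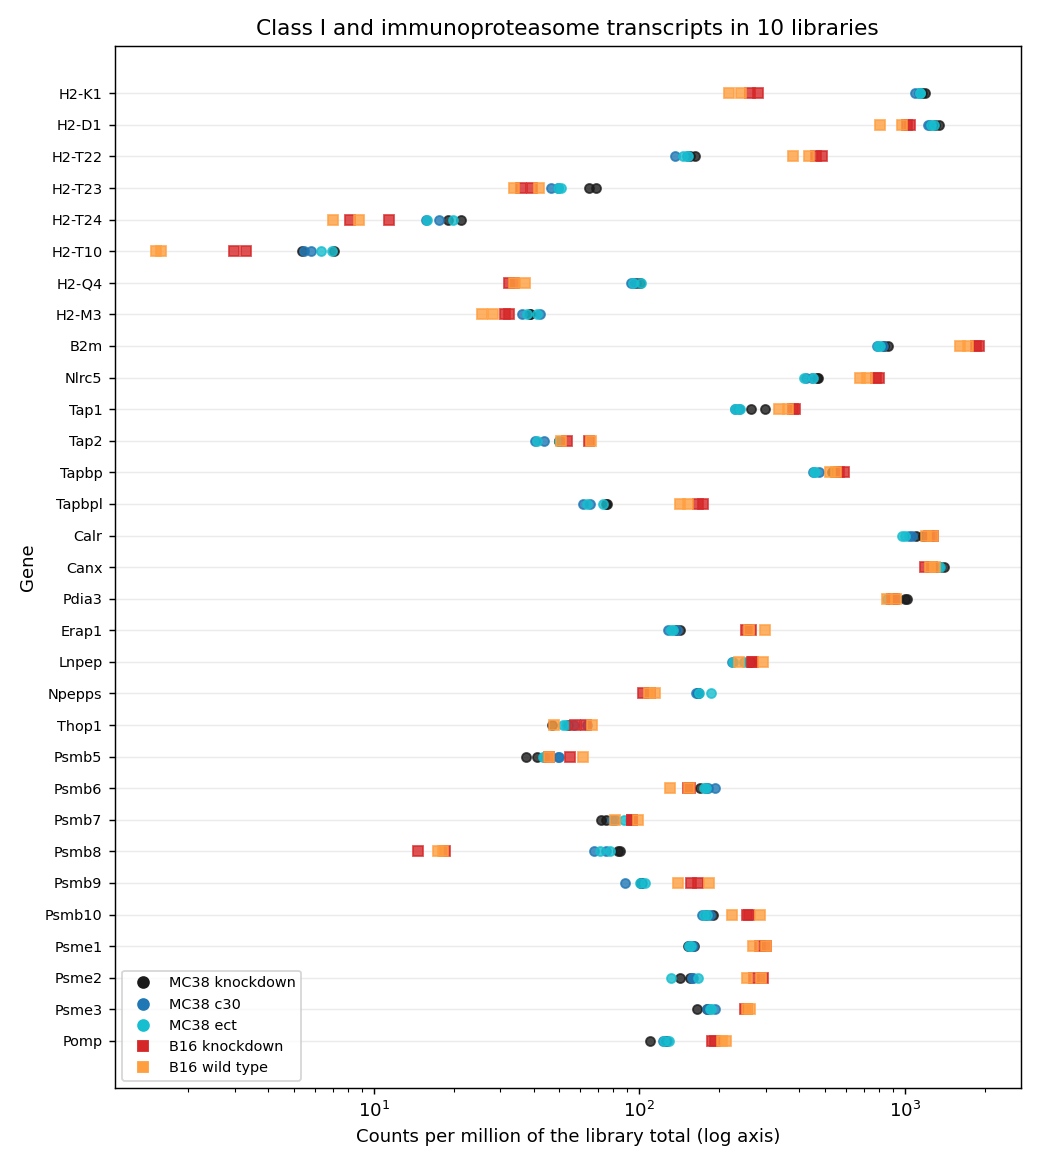
CPM (log axis) of the 31 tested genes, 1 point per library, with circles for MC38 and squares for B16. H2-K1 and Psmb8 lie far lower in B16 than in MC38, H2-T22 and B2m lie higher, and the groups within a line lie close together.

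In MC38 with c30, part of the loading route was lower by edgeR than in the knockdown, and the constitutive subunit gene Psmb5 and the peptidase gene Thop1 were higher. Neither Psmb5 nor Thop1 passed with DESeq2. Of 31 genes tested, 6 were lower (H2-T23, Tap1, Tapbp, Tapbpl, Pdia3 and Psmb8) and 2 higher (edgeR, Benjamini-Hochberg adjusted p under 0.05 over all genes). These 8 calls set against 7.75% of all 15031 genes tested, of which 4.45% were lower and 3.3% higher, against 19.4% and 6.45% of the 31. The median log2 fold change was -0.08 for the 31 genes and 0.00 for all genes. With ect, 5 of the 31 were lower (H2-T23, Tap1, Tapbp, Calr and Pdia3) and 1, Psmb7, was higher, or 16.1% and 3.23% against 4.61% and 3.55% of all genes (8.16% in either direction), with medians of -0.04 and 0.00. Both comparisons use the same knockdown libraries. The largest change of any of the 31 was 1.39-fold with c30 and 1.32-fold with ect, both in H2-T23. Between c30 and ect, 0 of the 31 passed by edgeR, by DESeq2 or by limma-voom, and 5 had an unadjusted edgeR p under 0.05 (0.299% of all genes passed). Their log2 differences lay between -0.23 (H2-T10) and 0.20 (Thop1), so no gene called against the knockdown with one form alone was shown to differ between the forms.

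**Figure D2:**
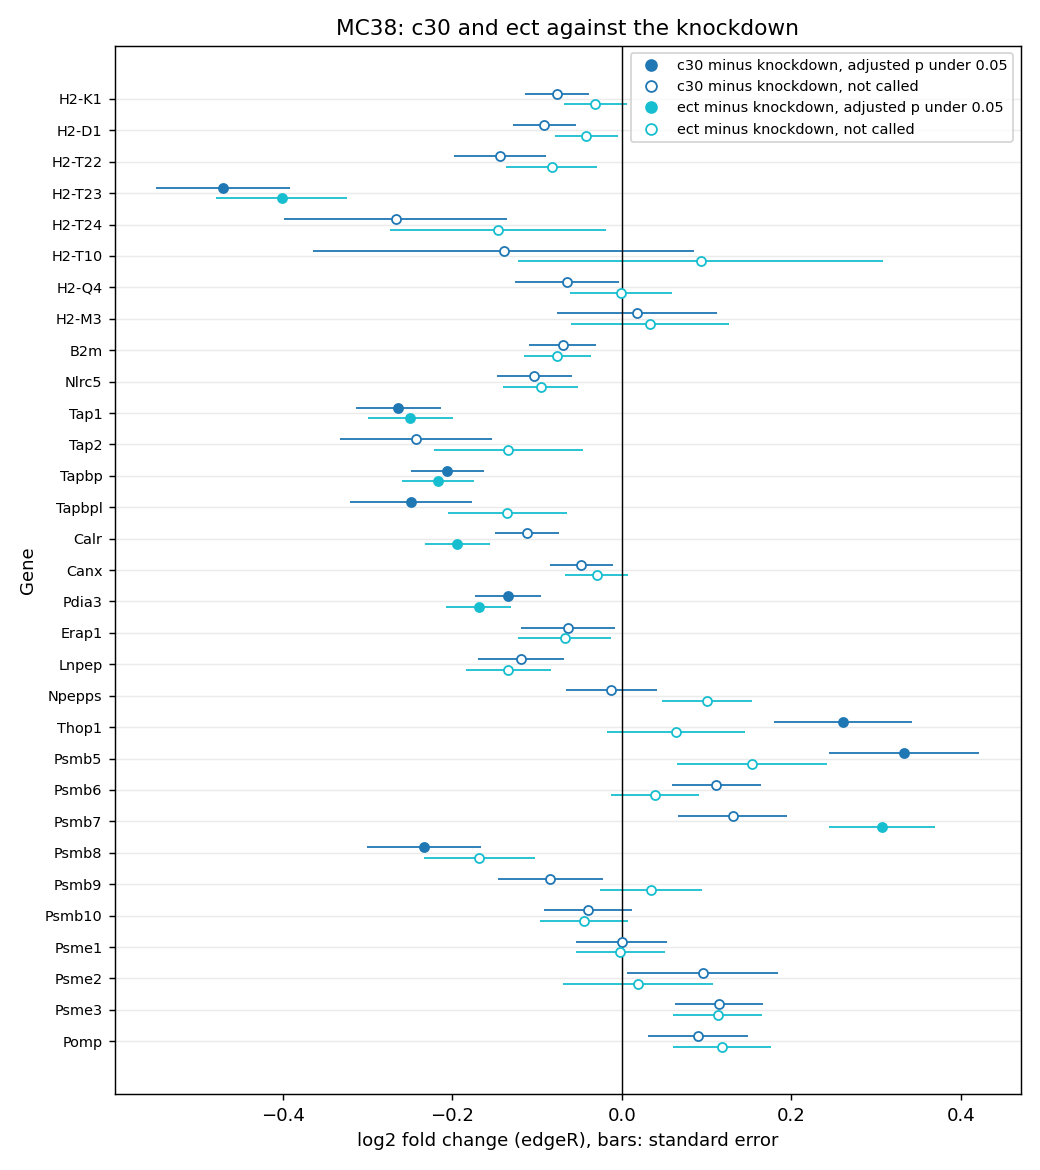
Log2 fold change of each tested gene in MC38 with c30 (dark blue) and with ect (light blue) against the shared knockdown libraries. Bars are standard errors, and filled points passed at an adjusted p under 0.05. H2-T23, Tap1, Tapbp and Pdia3 are filled on the lower side for both forms.

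The classical heavy chains, which present peptides to CD8+ T cells, did not pass the test with either form. H2-K1 stood at 1164 and 1193 CPM in the MC38 knockdown, 1097 and 1129.7 CPM with c30, and 1143 and 1144 CPM with ect. Both forms lay just below the knockdown, and neither difference passed (c30: log2 fold change -0.08, standard error (SE) 0.038, edgeR adjusted p = 0.233; ect: -0.03, SE 0.038, 0.710). H2-D1 stood at 1295 and 1345 CPM in the knockdown, 1244 and 1225 CPM with c30, and 1285 and 1258 CPM with ect. Its differences of -0.09 (SE 0.037, edgeR adjusted p = 0.125) and -0.04 (SE 0.037, 0.582) did not pass either. The summed heavy chains stood at 2854 and 2922 CPM in the knockdown, 2697 and 2694 with c30, and 2790.1 and 2763 with ect. Reads of H2 genes can match more than 1 copy, so the split between them is uncertain.

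H2-T23, which encodes Qa-1, the nonclassical molecule that the inhibitory receptor CD94/NKG2A recognises, had the largest fall among the 31 genes with both forms. It stood at 64.7 and 68.7 CPM in the knockdown, 46.3 and 49.5 CPM with c30, and 50.7 and 49.5 CPM with ect. Every c30 and ect library lay below both knockdown libraries. The log2 fold change was -0.47 with c30 (SE 0.079, edgeR adjusted p = 8.19e-06) and -0.40 with ect (SE 0.077, edgeR adjusted p = 0.00011), and between the forms the libraries overlapped. The 150 bases before its start, at chr17:36032702-36032851 on the minus strand of GRCm38.p6 (RefSeq), are shown because this was the largest change among the 31 genes in MC38. Capitals mark the core of the interferon-stimulated response element that IRF factors bind (here on the opposite strand), written as GAAA, any 2 bases, GAAA, and CCAAT.
H2-T23: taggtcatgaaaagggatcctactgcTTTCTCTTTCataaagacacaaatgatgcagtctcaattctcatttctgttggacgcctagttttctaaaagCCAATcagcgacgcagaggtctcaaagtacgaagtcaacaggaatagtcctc
Promoters of 250 bases before to 50 bases after the start were in the table for 28 of the 34 genes, and that core was in those of 5 of them (B2m, Erap1, H2-T22, H2-T23 and Psme1) on either strand, against 3.44% of all 32851 promoters. A match describes letters only, and a promoter without these exact letters was not shown to lack the element.

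Among the other nonclassical heavy chains, H2-Q4, H2-T22, H2-T24, H2-T10 and H2-M3 were not called with either form. H2-T22 ranged from 137 to 163 CPM over the 6 MC38 libraries, H2-Q4 from 93.0 to 101 CPM, H2-M3 from 36.1 to 42.2 CPM, H2-T24 from 15.8 to 21.3 CPM and H2-T10 from 5.35 to 7.11 CPM. B2m, the gene of the light chain, stood at 863 and 837 CPM in the knockdown, 827 and 787 CPM with c30, and 791 and 809 CPM with ect. Its c30 and ect libraries lay below the knockdown and did not pass (-0.07, SE 0.039, edgeR adjusted p = 0.324, and -0.08, SE 0.039, 0.264). Nlrc5, the transactivator of class I genes, stood at 469 and 470.4 CPM in the knockdown, 446 and 425 CPM with c30, and 453 and 419 CPM with ect. Neither difference passed (-0.10, SE 0.044, edgeR adjusted p = 0.152, and -0.10, SE 0.044, 0.194), although the groups did not overlap the knockdown. The share of all genes that separate in this way was not counted, here or for the other genes in MC38.

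Of the genes of the peptide transporter and the tapasin proteins, 3 of 4 were called with c30 and 2 of 4 with ect. Of all genes tested, 7.75% and 8.16% were called. Tap1, a subunit of the TAP transporter, stood at 263 and 298 CPM in the knockdown, 229 and 237 CPM with c30, and 229 and 239 CPM with ect. The knockdown libraries differed from each other, and both lay above all 4 c30 and ect libraries. The log2 fold change was -0.26 with c30 (SE 0.050, edgeR adjusted p = 0.000108) and -0.25 with ect (SE 0.050, 0.000222). Tap2, its partner, ranged from 40.4 to 50.1 CPM in MC38 and was not called. Tapbp, the gene of tapasin, which bridges TAP and the heavy chain, stood at 530.3 and 542 CPM in the knockdown, 453 and 474 CPM with c30, and 455 and 460.2 CPM with ect. Here too all 4 c30 and ect libraries were lower (c30: -0.21, SE 0.043, edgeR adjusted p = 0.00045, and ect: -0.22, SE 0.043, 0.000167). Tapbpl, which encodes the tapasin-related peptide editor TAPBPR, stood at 75.0 and 75.7 CPM in the knockdown, 61.2 and 65.2 CPM with c30, and 73.3 and 63.4 CPM with ect. It passed with c30 (-0.25, SE 0.072, edgeR adjusted p = 0.0179) and not with ect (-0.14, SE 0.070, 0.268), where 1 library lay near the knockdown. With all 10 libraries in one fit, neither Tapbp nor Tapbpl passed with c30, and with DESeq2 Tapbpl did not pass.

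Of the general chaperones that also serve class I folding, Pdia3 stood at 1018 and 1003 CPM in the knockdown, 926 and 911 CPM with c30, and 861 and 923 CPM with ect. It was lower with both forms (-0.13, SE 0.039, edgeR adjusted p = 0.0173, and -0.17, SE 0.039, 0.00142). Calr, the gene of calreticulin, stood at 1107 and 1174 CPM in the knockdown, 1065 and 1038 CPM with c30, and 977 and 999 CPM with ect. The libraries of the 3 groups did not overlap, with ect lowest. Calr passed with ect (-0.19, SE 0.038, edgeR adjusted p = 0.000143) and just missed with c30 (-0.11, SE 0.038, 0.0532). With c30 it passed as lower in 3 of 11 alternatives (limma-voom, the filter of 5 CPM, and without knockdown replicate 1), with adjusted p-values down to 0.00263. The difference between the forms did not pass (0.08, SE 0.038, 0.513). Canx, the gene of the membrane chaperone calnexin, ranged from 1328 to 1409.9 CPM and was not called.

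Of the peptide-trimming enzymes, 1 of 4 was called in MC38, with c30 alone, where 7.75% of all genes were called. Thop1, a cytosolic oligopeptidase that cleaves short peptides, stood at 46.7 and 54.1 CPM in the knockdown, 63.7 and 56.8 CPM with c30, and 52.9 and 51.7 CPM with ect. It was higher with c30 (0.26, SE 0.081, edgeR adjusted p = 0.0294), although the knockdown libraries differed from each other by more than the lower c30 library differed from their mean. With ect it did not pass (0.06, SE 0.081, edgeR adjusted p = 0.729). Erap1, which trims peptides in the endoplasmic reticulum, ranged from 129 to 143 CPM, the endosomal aminopeptidase gene Lnpep from 225 to 263 CPM and the cytosolic aminopeptidase gene Npepps from 163 to 186 CPM.

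In the proteasome, the 3 constitutive catalytic subunits had positive log2 fold changes with both forms, and 1 of them passed in each comparison. Psmb5, the chymotrypsin-like subunit, stood at 41.4 and 37.5 CPM in the knockdown, 49.8 and 49.4 CPM with c30, and 43.4 and 43.7 CPM with ect. It was higher with c30 (0.33, SE 0.089, edgeR adjusted p = 0.00836) and did not pass with ect (0.15, SE 0.089, 0.329). Psmb7, the trypsin-like subunit, stood at 74.9 and 71.7 CPM in the knockdown, 80.8 and 79.2 CPM with c30, and 92.3 and 87.8 CPM with ect. It was higher with ect (0.31, SE 0.063, edgeR adjusted p = 0.000288) and did not pass with c30 (0.13, SE 0.064, 0.236). For both genes the 3 groups did not overlap, but c30 against ect did not pass (Psmb5: 0.18, SE 0.088, edgeR adjusted p = 0.557; Psmb7: -0.18, SE 0.063, 0.313). Psmb6, the caspase-like subunit, stood at 169.8 and 178 CPM in the knockdown, 182 and 193 CPM with c30, and 176 and 179 CPM with ect, and did not pass (0.11, SE 0.052, edgeR adjusted p = 0.203, and 0.04, SE 0.052, 0.741).

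Of the inducible subunits in MC38, Psmb8, which takes the place of Psmb5, stood at 83.3 and 85.0 CPM in the knockdown, 67.8 and 74.8 CPM with c30, and 77.6 and 71.3 CPM with ect. All 4 c30 and ect libraries were lower. The difference passed with c30 (-0.23, SE 0.067, edgeR adjusted p = 0.0167) and not with ect (-0.17, SE 0.066, 0.107). Psmb9, which takes the place of Psmb6, stood at 101 and 102 CPM in the knockdown, 102 and 88.4 CPM with c30, and 106 and 101 CPM with ect, so the groups overlapped (-0.08, SE 0.062, edgeR adjusted p = 0.489, and 0.03, SE 0.060, 0.818). Psmb10, which takes the place of Psmb7, stood at 189 and 179 CPM in the knockdown, 184 and 173 CPM with c30, and 175 and 179 CPM with ect (-0.04, SE 0.052, edgeR adjusted p = 0.752, and -0.04, SE 0.052, 0.693). The genes of the PA28 activator, Psme1 and Psme2, the related Psme3 and the assembly factor gene Pomp were not called. Psme1 ranged from 153 to 161 CPM in MC38, Psme2 from 132 to 167 CPM, Psme3 from 165 to 192 CPM and Pomp from 109.9 to 129.98 CPM.

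Set against its constitutive counterpart per kilobase of exon, Psmb8 was at 1.11 and 1.25 times Psmb5 in the knockdown, 0.753 and 0.837 times with c30, and 0.988 and 0.900 times with ect. The ratio of Psmb10 to Psmb7 was 2.23 and 2.21 in the knockdown, 2.02 and 1.93 with c30, and 1.67 and 1.81 with ect. For both pairs the knockdown libraries had the highest ratios. The ratio of Psmb9 to Psmb6 was 0.352 and 0.337 in the knockdown, 0.332 and 0.271 with c30, and 0.354 and 0.333 with ect. Here both c30 libraries lay below the knockdown, and ect overlapped it. No test was made of these ratios, since with 2 libraries against 2 an exact permutation test cannot go below 0.333, and their absolute size depends on the exon lengths annotated.

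**Figure D3:**
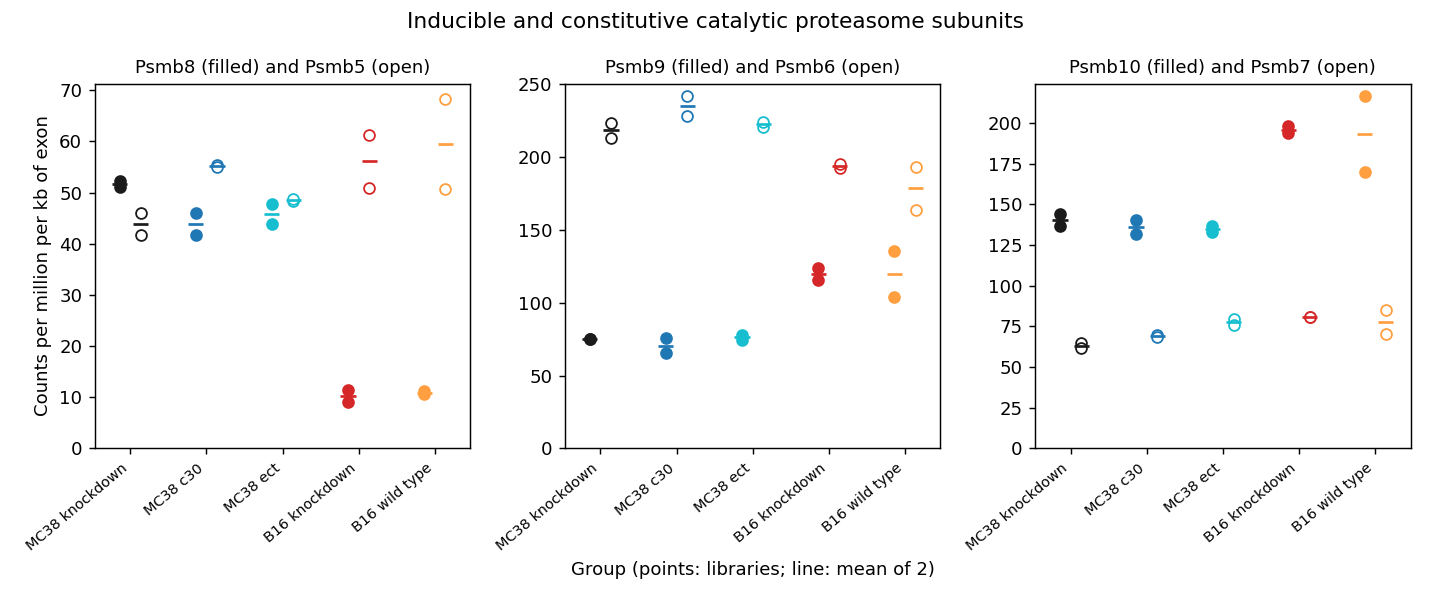
Level per kilobase of exon (linear axis from 0) of each inducible catalytic subunit gene (filled) beside its constitutive counterpart (open), with 1 point per library and a line at the mean of 2. Psmb8 lies at or above 41 in MC38 and near 10 in B16, where Psmb9 and Psmb10 lie above their MC38 levels.

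Of 63 other tested genes of the route (further heavy chains and regulators, chaperones, peptidases and other proteasome subunits), 3 were lower and 3 higher with c30, and likewise with ect. That is 4.76% each way, near the share over all genes. Of all genes, 4.45% were lower and 3.3% higher with c30, and 4.61% and 3.55% with ect. The list they came from also held H2-Ke6, which is not a class I gene. With c30 the smallest adjusted p-values were those of the chaperone gene Hspa5 (-0.19, SE 0.038, edgeR adjusted p = 0.00028), the regulatory particle gene Psmd3 (0.21, SE 0.052, 0.00355) and Irf1, an IFNγ-induced transcription factor (-0.17, SE 0.044, 0.00538). With ect they were those of Hspa5 (-0.23, SE 0.038, edgeR adjusted p = 4.67e-06), the core particle gene Psma5 (0.22, SE 0.047, 0.000536) and the regulatory particle gene Psmd8 (-0.23, SE 0.053, 0.00149). Between the forms 0 of the 63 passed by edgeR, and 5 had an unadjusted p under 0.05.

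The calls in MC38 were small changes, and several rested on single libraries. With c30, H2-T23 and Tap1 passed in all 11 alternatives run, and the number called was 4 with DESeq2, 2 with all 10 libraries in one fit, 2 without c30 replicate 1, and 5 without c30 replicate 2 or without knockdown replicate 2, while without knockdown replicate 1 H2-D1 (edgeR adjusted p = 0.0252) and Calr passed as lower. Calls over all genes fell as well, from 1165 to 519 with DESeq2, 254 with all 10 libraries, 464 without c30 replicate 1, 485 without c30 replicate 2 and 794 without knockdown replicate 2. With ect, H2-T23 passed in all 11, it alone passed with all 10 libraries in one fit (where calls over all genes fell too), and Pdia3 also did not pass without ect replicate 1 (edgeR adjusted p = 0.119).

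In B16, wild-type Sdc1 was set against the knockdown of the same line. None of the 31 tested genes passed by edgeR, by DESeq2 or by limma-voom, and 3 (H2-K1, H2-T22 and H2-T10) had an unadjusted edgeR p under 0.05. Of all 14336 genes tested, 0% passed by edgeR, and 10 genes passed by DESeq2 and 0 by limma-voom. The log2 fold changes lay between -0.99 (H2-T10, at 2.98 and 3.31 CPM against 1.58 and 1.52 CPM with wild-type Sdc1) and 0.16 (Pomp), with a median of -0.02 against 0.00 for all genes.

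Classical heavy chain levels in B16 were lower in the wild-type libraries, and no difference passed. H2-K1 stood at 261 and 279 CPM in the knockdown and 242 and 218 CPM with wild-type Sdc1 (-0.21, SE 0.085, edgeR adjusted p = 0.877). H2-D1 stood at 1018 and 1049 CPM and at 977 and 809.8 CPM (-0.18, SE 0.098, edgeR adjusted p = 0.901). The groups did not overlap, and wild-type replicate 2 was the lowest library for both. The same order held for H2-T22, at 464 and 489.9 CPM and at 435 and 379.9 CPM (-0.20, SE 0.089, edgeR adjusted p = 0.891), for B2m, at 1863 and 1909.9 CPM and at 1724 and 1611 CPM (-0.15, SE 0.085, 0.901), and for Tapbpl, at 166 and 173 CPM and at 152 and 142 CPM (-0.18, SE 0.083, 0.891). Nlrc5 stood at 801 and 782 CPM in the knockdown and 681 and 723 CPM with wild-type Sdc1 (-0.15, SE 0.084, edgeR adjusted p = 0.901). Tap1, at 381 and 388 CPM and at 364 and 336 CPM, was lower without overlap too and did not pass. The same held for Tapbp, at 567 and 588 CPM and at 552 and 524 CPM. It also held for H2-M3, at 31.3 and 32.5 CPM and at 28.1 and 25.5 CPM. Other genes were higher without overlap: Pomp, at 187 and 192 CPM and at 204 and 212 CPM, Psme3, at 250.6 and 253.7 CPM and at 260.7 and 254.1 CPM, and H2-Q4, at 32.30 and 33.77 CPM and at 37.28 and 33.85 CPM. Of the 31 log2 fold changes, 15 were positive and 16 negative. The share of all genes without overlap was not counted. H2-T23 had the largest change among the 31 genes in MC38. It stood at 39.3 and 35.9 CPM in the B16 knockdown and 41.8 and 33.8 CPM with wild-type Sdc1, where the groups overlapped.

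The catalytic subunit genes did not separate the B16 groups. Psmb8 stood at 14.7 and 18.6 CPM in the knockdown and 18.2 and 17.4 CPM with wild-type Sdc1, Psmb9 at 156 and 167 CPM and at 183 and 140.2 CPM, and Psmb10 at 254 and 260.1 CPM and at 284 and 223 CPM. For the latter pair the 2 wild-type libraries lay on either side of the knockdown. Psmb5 stood at 45.8 and 55.0 CPM and at 61.4 and 45.6 CPM, Psmb6 at 153 and 156 CPM and at 154 and 131 CPM, and Psmb7 at 93.9 and 93.8 CPM and at 98.8 and 81.3 CPM. The ratio of Psmb8 to Psmb5 per kilobase was 0.177 and 0.187 in the knockdown and 0.164 and 0.211 with wild-type Sdc1. The number of calls in B16 changed when a wild-type library was left out. Such a fit sets 1 wild-type library against 2, takes the spread from the 2 knockdown libraries and assumes that the lone library varies like them. Without wild-type replicate 1, edgeR called H2-K1, H2-D1, H2-T22, B2m and Tapbpl lower, among others, and Erap1 and Pomp higher. Without wild-type replicate 2 it called Nlrc5 lower (-0.20). In both fits genes passed over the whole table too. The share of all genes called was not computed there, so these calls are not read as a result about the 31 genes. On leaving out either knockdown library no gene of the 31 passed. Of the other genes of the route, 0 of 62 passed, and 1 had an unadjusted p under 0.05.

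The knockdown libraries of B16 and MC38 were compared to see how the lines differ under IFNγ without re-expressed Sdc1. The largest differences split genes that act together. H2-K1 and Psmb8 were over 4-fold lower in B16, while B2m, H2-T22, Tapbpl, the activator genes Psme1 and Psme2 and most of the loading route were higher. Of the 31 genes, 18 were higher in B16 and 8 lower (edgeR adjusted p under 0.05), and 83.9% passed in either direction. The lines differ widely, and 68.2% of all 16877 genes tested passed (33.8% higher and 34.3% lower, against 58.1% and 25.8% of the 31). The median log2 difference was 0.28 over the 31 genes and -0.01 over all genes.

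**Figure D4:**
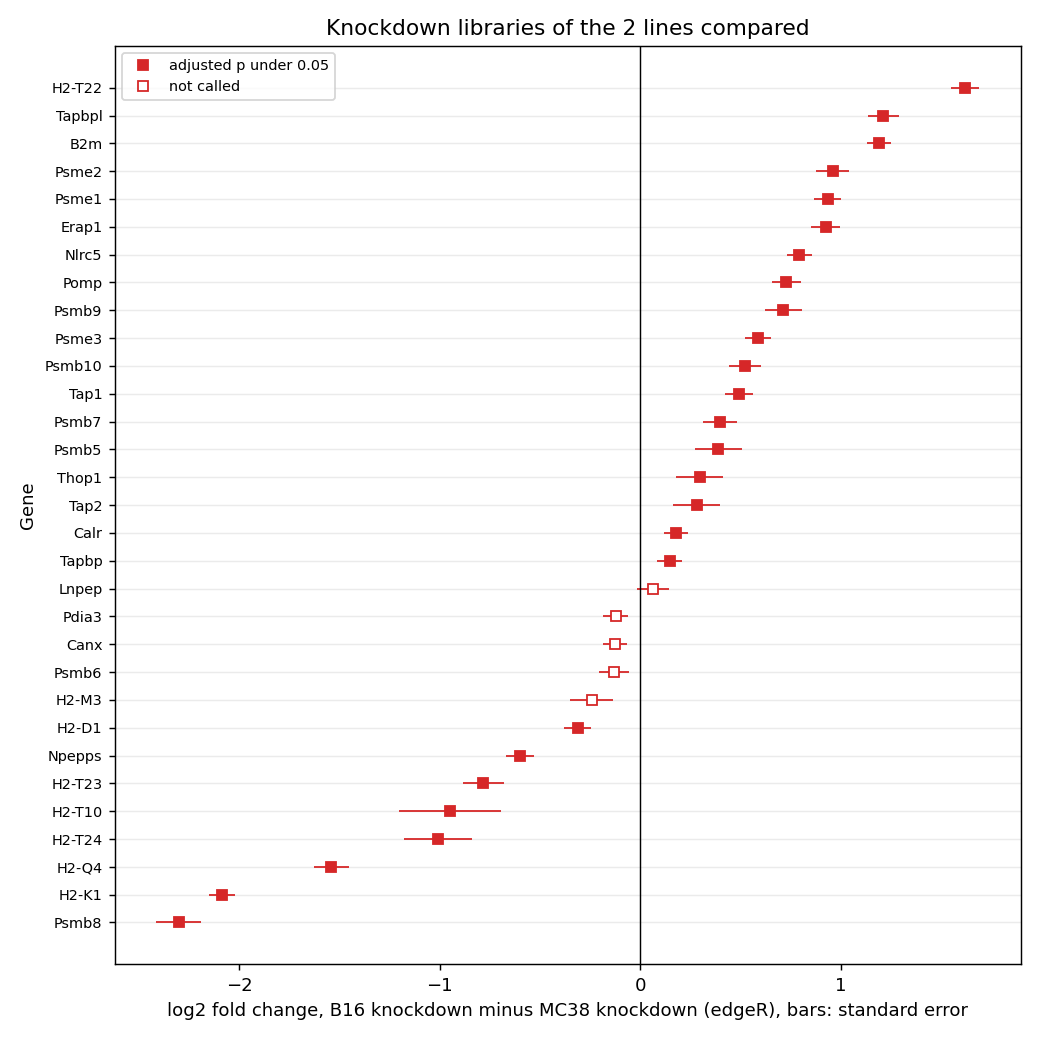
Log2 difference of each tested gene between the knockdown libraries of B16 and MC38, ordered by size, with standard errors as bars and filled squares for an adjusted p under 0.05. Psmb8 and H2-K1 lie at the lower end and H2-T22 at the upper end.

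Of the heavy chains, H2-K1 differed most between the lines. It stood at 1164 and 1193 CPM in the MC38 knockdown against 261 and 279 CPM in B16, a log2 difference of -2.09 (SE 0.063, edgeR adjusted p = 7.44e-21), or 4.24-fold lower. H2-D1 was lower by less, at 1295 and 1345 CPM against 1018 and 1049 CPM (-0.31, SE 0.069, edgeR adjusted p = 0.000243). Per kilobase of exon, H2-K1 was at 1.14 and 1.13 times H2-D1 in the MC38 knockdown and at 0.326 and 0.338 times in B16. With c30 or ect the ratio was 1.12 to 1.17 in MC38, and with wild-type Sdc1 it was 0.314 and 0.341 in B16. The lines thus lay far apart while the groups within a line overlapped. The stretches before the H2-K1 start (chr17:34000334-34000508, minus strand) and the H2-D1 start (chr17:35262872-35263047, plus strand; both GRCm38.p6, RefSeq) are shown because these paralogs have similar promoters and both were lower in B16, by different amounts. Capitals mark TGACGC, part of the element next to the one that RFX factors bind in class I promoters, and CCAAT, which NF-Y binds (ATTGG on the opposite strand).
H2-K1: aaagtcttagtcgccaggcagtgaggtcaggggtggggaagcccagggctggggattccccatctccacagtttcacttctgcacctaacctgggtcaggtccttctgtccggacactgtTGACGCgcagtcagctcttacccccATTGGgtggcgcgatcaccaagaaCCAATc
H2-D1: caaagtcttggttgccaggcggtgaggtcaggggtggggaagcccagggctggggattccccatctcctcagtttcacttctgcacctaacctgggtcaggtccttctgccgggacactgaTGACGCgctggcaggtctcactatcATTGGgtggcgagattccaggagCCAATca
The aligned stretches were identical at 156 of 177 positions (88.1%), and both hold TGACGC once and CCAAT once on each strand. TGACGC was in 7.4% of all promoters and in those of 7 of the 28 genes on either strand, and CCAAT in 37.4% and in those of 17.

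The nonclassical heavy chains also went in both directions. H2-T22, a nonclassical molecule that γδ T cells can recognise, stood at 163 and 156 CPM in the MC38 knockdown and 464 and 489.9 CPM in B16 (1.62, SE 0.070, edgeR adjusted p = 1.67e-17), 3.08-fold higher. Its near-identical relative H2-T10, at 7.11 and 5.35 CPM against 2.98 and 3.31 CPM, was lower in B16 (-0.95, SE 0.26, edgeR adjusted p = 0.00163), and the split of reads between the pair is uncertain. H2-Q4 stood at 101 and 97.0 CPM against 32.3 and 33.8 CPM (-1.54, SE 0.086, edgeR adjusted p = 3.41e-15) and H2-T24 at 21.3 and 19.0 CPM against 8.17 and 11.4 CPM (-1.01, SE 0.17, 7.16e-06). H2-T23 was lower in B16 as well (-0.78, SE 0.10, edgeR adjusted p = 1.65e-07), and H2-M3, which presents formylated peptides, did not pass (-0.24, SE 0.11, 0.0508). The summed heavy chains came to 1857 and 1935 CPM in the B16 knockdown against 2854 and 2922 CPM in MC38.

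The light chain and the transactivator were higher in B16, against the direction of most heavy chains. B2m stood at 863 and 837 CPM in the MC38 knockdown and 1863 and 1909.9 CPM in B16 (1.19, SE 0.059, edgeR adjusted p = 3.71e-16), 2.28-fold higher, and over all groups its lowest B16 library, at 1611 CPM, lay above its highest MC38 library, at 863 CPM. Nlrc5 stood at 469 and 470.4 CPM against 801 and 782 CPM (0.79, SE 0.063, edgeR adjusted p = 1.01e-11). The stretches before the B2m start (chr2:122147537-122147686, plus strand) and the H2-T22 start (chr17:36042743-36042947, minus strand; both GRCm38.p6, RefSeq) are shown because both genes were far higher in B16. Capitals mark the same response element core and CCAAT, on either strand.
B2m: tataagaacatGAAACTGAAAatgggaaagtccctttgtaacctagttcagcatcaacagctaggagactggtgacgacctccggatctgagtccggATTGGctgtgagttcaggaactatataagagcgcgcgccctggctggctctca
H2-T22: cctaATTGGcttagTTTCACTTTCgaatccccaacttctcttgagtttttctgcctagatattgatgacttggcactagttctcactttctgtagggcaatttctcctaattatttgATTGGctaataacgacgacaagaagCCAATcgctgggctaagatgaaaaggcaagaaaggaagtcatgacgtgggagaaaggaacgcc
The promoter of H2-T23, shown above, holds that core too, and that gene was lower in B16.

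Of the 7 transporter and loading genes, 5 were higher in B16, against 33.8% of all genes, and 2 did not pass. Tapbpl stood at 75.0 and 75.7 CPM in the MC38 knockdown and 166 and 173 CPM in B16 (1.21, SE 0.077, edgeR adjusted p = 8.52e-14). Tap1 stood at 263 and 298 CPM against 381 and 388 CPM (0.49, SE 0.068, edgeR adjusted p = 3.59e-07). Tap2 (0.28, SE 0.12, edgeR adjusted p = 0.0354), Tapbp (0.15, SE 0.061, 0.0359) and Calr (0.18, SE 0.060, 0.00961) were higher by little, and Canx (-0.13, SE 0.060, 0.0642) and Pdia3 (-0.12, SE 0.061, 0.0754) did not pass. Of the trimming enzymes, Erap1 was higher in B16 (0.92, SE 0.071, edgeR adjusted p = 5.65e-12), Thop1 was higher (0.30, SE 0.12, 0.028), Npepps was lower (-0.60, SE 0.070, 2.04e-08) and Lnpep did not pass (0.07, SE 0.080, 0.478). Exons of Erap1 overlap those of Cast on the opposite strand, which held 3868 and 3700 counts in the MC38 knockdown and 1257 and 1104 in B16, and the strand setting of the counting is not given.

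The 3 inducible proteasome subunits went apart between the lines. Psmb8 stood at 83.3 and 85.0 CPM in the MC38 knockdown and 14.7 and 18.6 CPM in B16, from 192 and 214 counts (-2.30, SE 0.11, edgeR adjusted p = 9.47e-17), 4.93-fold lower. Over all groups the 4 B16 libraries held 14.7 to 18.6 CPM and the 6 MC38 libraries 67.8 to 85.0 CPM. Psmb9, whose gene lies in the same cluster, was higher in B16, at 156 and 167 CPM against 101 and 102 CPM (0.71, SE 0.093, edgeR adjusted p = 5.08e-07), and so was Psmb10, at 254 and 260.1 CPM against 189 and 179 CPM (0.52, SE 0.080, 2.66e-06). The constitutive subunit genes Psmb5 (0.39, SE 0.12, edgeR adjusted p = 0.00453) and Psmb7 (0.40, SE 0.084, 0.000146) were higher in B16, and Psmb6 did not pass (-0.13, SE 0.073, 0.117). Exons of Psmb7 overlap those of Nek6 on the opposite strand, which held 411 and 428 counts in the MC38 knockdown and 1020 and 971 in B16. Per kilobase, Psmb8 was thus at 0.177 and 0.187 times Psmb5 in the B16 knockdown against 1.11 and 1.25 times in MC38. Psmb9 to Psmb6 was 0.603 and 0.633 against 0.352 and 0.337, and Psmb10 to Psmb7 was 2.39 and 2.45 against 2.23 and 2.21.

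Psmb8, Psmb9 and the transporter genes lie side by side in the MHC on chromosome 17, and Psmb9 and Tap1 are transcribed away from each other from a short shared stretch. The stretch before Psmb8 (chr17:34198045-34198194, plus strand) and the 225 bases between the starts of Psmb9 and Tap1 (chr17:34187331-34187555, written on the strand of Tap1; both GRCm38.p6, RefSeq) are shown because the genes they precede went in opposite directions between the lines. Capitals mark TTCNNNGAA, the letters of the gamma-activated site of IFNγ-induced genes, and CCAAT.
Psmb8: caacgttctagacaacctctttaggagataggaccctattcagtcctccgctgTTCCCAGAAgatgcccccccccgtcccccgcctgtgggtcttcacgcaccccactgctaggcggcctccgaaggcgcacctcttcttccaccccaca
Psmb9-Tap1: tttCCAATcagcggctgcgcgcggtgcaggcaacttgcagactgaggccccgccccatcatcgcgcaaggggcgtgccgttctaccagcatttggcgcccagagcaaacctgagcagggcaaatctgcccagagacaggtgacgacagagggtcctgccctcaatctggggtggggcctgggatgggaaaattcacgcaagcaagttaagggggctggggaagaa
TTCNNNGAA was in the promoters of 2 of the 28 genes (Psmb8 and H2-M3), against 8.3% of all promoters, and it reads the same on both strands. Psmb9 and Tap1 have overlapping exons in the annotation, so without strand reads from the overlap cannot be told apart.

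The proteasome activator genes were higher in B16 together. Psme2 stood at 155 and 143 CPM in the MC38 knockdown and 271 and 292 CPM in B16 (0.96, SE 0.083, edgeR adjusted p = 1.92e-10), and Psme1 at 153 and 161 CPM against 299 and 285 CPM (0.93, SE 0.068, 1.77e-12). Pomp, the assembly factor, was higher by 0.73 (SE 0.071, edgeR adjusted p = 5.47e-10) and Psme3, which serves a nuclear activator, by 0.59 (SE 0.065, 7.72e-09). Of the 63 other genes of the route, 21 were higher in B16 and 12 lower, or 52.4% in all, under the share over all genes. Among those higher were the chaperone gene Pdia4 (1.55, SE 0.066, edgeR adjusted p = 1.05e-17) and the translocon gene Sec61a1 (1.05, SE 0.066, 6.94e-14). Of the 26 calls between the lines, 21 held in all 11 alternatives run. The calls of Tap2, Tapbp, Calr, Thop1 and Psmb5 were each lost on leaving out at least 1 library, and also with DESeq2 (Tap2 and Thop1), the filter of 5 CPM (Tap2 and Tapbp) or no filter (Tapbp), with adjusted p-values of up to 0.339, 0.166, 0.13, 0.264 and 0.0982. Of the genes that did not pass, Canx passed as lower in 5 of the 11, H2-M3 in 4 and Pdia3 in 3.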

How the data were processed

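mRNA libraries of 10 samples were sequenced in paired ends on an Illumina instrument, per the labels' protocols. The authors deposited raw counts per gene; Trimmomatic, HISAT2 2.0.5, HTSeq, featureCounts, DESeq2 and the build GRCm39 are named in the submitters' processing notes, and the order of tools, annotation release, strand setting and handling of reads with several matches are not given in the sources used here. Ensembl identifiers were matched to symbols for 51884 of 60676 rows. Exon lengths are the union of protein-coding exons of the GENCODE M21 basic set (GRCm38). Exons of 15 of the 34 genes overlap those of another gene.

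The main test was the 2-sided quasi-likelihood test of edgeR 4.0.16 (R 4.3.3), after filterByExpr and TMM scaling, with robust dispersions. P-values were adjusted over all genes by Benjamini-Hochberg, and a call needs an adjusted value under 0.05. MC38 comparisons came from 1 fit of 6 libraries, the B16 comparison used 4, and the comparison of lines used all 10. Fold changes come from TMM-scaled counts, and levels per library are CPM of the library total. Standard errors come from the fitted model. Motifs were searched on both strands of the RefSeq promoter table (GRCm38.p6, 250 bases before to 50 after each start), with entries for 28 of the 34 genes; alignment used Biopython 1.88. Alternatives were RLE size factors, no filter, a filter of 5 CPM in 2 libraries, DESeq2 1.42.0, limma-voom (limma 3.58.1), a replicate block, other sets of libraries and leaving out each library. The test was tried on simulated counts. The members, lists and tests were chosen with earlier results of these data known. Values in every MC38 library are given for genes called with c30 or ect, and no gene was called with wild-type Sdc1. H2-K1, H2-D1, B2m, Nlrc5 and the 6 catalytic subunits have values in all 10 libraries. For the 5 largest called differences each way between the lines, values are given in every knockdown library. Of the other genes of the route, up to 3 called genes a comparison are named by smallest adjusted p, of which 1 is not reported here. Intervals and limits for a count of 0, taken as 3 counts, cover counting error only.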

Additional observations from a re-analysis of the deposited data

How the results depend on the processing

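Of 40 calls, 24 held in every alternative run and 0 changed direction. The number of genes called with c30 was 4 with DESeq2 and 2 with all 10 libraries in one fit, against 8, and ranged from 2 to 8 on leaving out single libraries. With ect it was 1 with all 10 libraries in one fit, against 6, and ranged from 5 to 7 on leaving out single libraries. In B16 it ranged from 0 to 9, against 0, the 9 without wild-type replicate 1, where 1295 genes passed over the whole table, against 0. A fit that leaves out a library assumes that the lone library of its group varies like the others. Between the lines it ranged from 22 to 27 apart from limma-voom (29) and the 4 knockdown libraries alone (30), against 26. The cause was not tested. With the replicate number as a block the numbers called were 8, 6, 0, 0 and 26, as without it. Same-numbered libraries did not deviate together (correlations between groups from -0.127 to 0.0458 over 10395 genes), so the numbers were not taken as pairs. Pairing the B16 libraries crosswise, added after seeing the data, also gave 0. Not all differences that did not pass were followed through the alternatives. Among those followed, some log2 differences ranged across 0 on leaving out single libraries. These were Psmb9 with c30 (-0.18 to 0.0014, the latter without c30 replicate 2) and Psmb9 with ect (-0.012 to 0.078, the former without ect replicate 1). Thop1 with ect did so as well (-0.041 to 0.17, the former without knockdown replicate 1). The median log2 ratios over 10 libraries of Psmb8 to Psmb5, Psmb9 to Psmb6 and Psmb10 to Psmb7 were -0.33, -1.50 and 1.15 per kilobase, 0.52, -0.74 and 1.33 with no length correction, and -1.39, -1.71 and 2.33 with the length over all annotated transcripts, which was added after seeing the data. The length is the same for every library, so these shifts do not alter the comparison between libraries.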
